A study of Mus musculus with 11 samples.

Results

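The adenylyl cyclase family described here is the 9 genes of the membrane-bound enzymes, Adcy1 to Adcy9. They were found by gene symbol, each matched to 1 Ensembl identifier of the deposited count tables, and all 9 were among the 24177 genes tested of 55487 in the tables. RNA was sequenced from whole embryonic hearts at E14.5, 1 library per heart, from 5 Pde2A-/- and 6 Pde2A+/+ embryos. The sample titles of both genotypes name the mouse stock B6; 129P2-Pde2A <tm1Dgen>. Embryos of both genotypes came from matings of heterozygous mice and were of both sexes. The knockout is constitutive, so in Pde2A-/- embryos Pde2A, a phosphodiesterase that breaks down cAMP and cGMP, is lost in the whole embryo and not in the heart alone. No treatment was given to these embryos. The question put to the family was whether the genes of the enzymes that make cAMP differ in transcript level where an enzyme that removes it is missing.

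Adenylyl cyclases convert ATP to cAMP. The membrane-bound forms are switched on by the stimulatory G protein and differ in what else acts on them: group I (Adcy1, Adcy3 and Adcy8) answers to calcium and calmodulin, group II (Adcy2, Adcy4 and Adcy7) is further stimulated by G protein βγ subunits, group III (Adcy5 and Adcy6) is inhibited by calcium and by the inhibitory G protein, and Adcy9 stands alone as the form that forskolin hardly activates. Adcy5 and Adcy6 are known as the main forms of the cardiac muscle cell, where they relay adrenergic input to protein kinase A.

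The shared origin of the family shows in the coding sequence of the first catalytic domain, which is given here because some of its codons differ between the groups named above. Each line is 42 bases of coding sequence from the GENCODE M21 transcripts (GRCm38), read 5′ to 3′, and the capitals mark the 8 codons around a conserved aspartate codon that binds the catalytic metal.
Adcy1: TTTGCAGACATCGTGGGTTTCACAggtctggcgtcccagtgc
Adcy3: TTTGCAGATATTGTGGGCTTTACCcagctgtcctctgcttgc
Adcy8: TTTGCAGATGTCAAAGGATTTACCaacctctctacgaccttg
Adcy2: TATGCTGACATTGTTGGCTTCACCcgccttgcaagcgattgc
Adcy4: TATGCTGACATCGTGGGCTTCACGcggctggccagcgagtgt
Adcy7: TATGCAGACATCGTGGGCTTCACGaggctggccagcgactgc
Adcy5: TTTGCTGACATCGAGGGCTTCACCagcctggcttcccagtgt
Adcy6: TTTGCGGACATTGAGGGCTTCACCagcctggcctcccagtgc
Adcy9: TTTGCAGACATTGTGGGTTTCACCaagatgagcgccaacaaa

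This pattern of codons was found exactly 1 time in each of the 9 coding sequences. The first codon was TAT in the 3 members of group II and TTT in the other 6, and the fifth was GAG in Adcy5 and Adcy6, the pair of group III, and in no other member. Adcy5 and Adcy6 shared 38 of the 42 bases, as did Adcy4 and Adcy7, whereas Adcy4 and Adcy8 shared 19. In Adcy7 the stretch lies in exon 9 of the transcript, on the plus strand at chr8:88312207-88312248, and in Adcy6 in exon 5, on the minus strand at chr15:98600241-98600282. None of the 9 genes shares exon bases with another gene on its own strand, so their sense counts are not divided with a neighbour. On the opposite strand, 22.1% of the exon bases of Adcy3 lie in Cenpo, 8.92% of those of Adcy6 in Gm29331 and 4.49% of those of Adcy2 in Gm35161.

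The targeted gene was examined first. Pde2a (ENSMUSG00000110195) had from 0 to 2 counts in each heart of either genotype and 7 counts over the 11 hearts, and 64.3% of its exon bases lie in Gm45837 on the same strand. The genotype labels could therefore not be checked against Pde2a. Sense reads assigned to genes numbered 35865537 to 42835382 per heart. Nothing in the sources says that the hearts of a genotype came from separate litters, so the p-values measure the spread between these hearts.

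Markers of the labelled tissue were abundant, with Myh7, a myosin heavy chain of cardiac muscle, at 13137 ± 1646 CPM (reads of a gene relative to its library total after TMM adjustment; SD, n = 5) in Pde2A-/- and 13839 ± 2618 CPM (n = 6) in Pde2A+/+ hearts. Several libraries held transcripts of other tissues. The summed level of 11 thymus genes was 133 CPM in Pde2A+/+ replicate 7 and between 5.51 and 8.28 CPM in the other 10 hearts. The summed level of 7 liver genes was 117 CPM in Pde2A+/+ replicate E and from 39.6 to 45.9 CPM in Pde2A+/+ replicates 11 and H and Pde2A-/- replicate D, against at most 7.49 CPM in the other 7. Lung epithelial genes summed to 22.0 CPM in Pde2A+/+ replicate 11 and to 15.5 CPM in replicate 7, against at most 1.84 CPM elsewhere. Leaving out Pde2A+/+ replicate 7 changed no call among the 9 cyclases.

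Adcy6 and Adcy5 supplied most of the family's transcript. On the scale of CPM per kilobase of exon, which allows levels of different genes to be set side by side, this pair made up 83.3% ± 1.36 (SD, n = 6) of the summed level of the 9 genes in Pde2A+/+ and 82.9% ± 1.34 (n = 5) in Pde2A-/- hearts. Adcy6 stood first in Pde2A+/+ hearts with a level of 49.4 ± 3.50 CPM per kb, followed by Adcy5 with 24.3 ± 2.63, Adcy4 with 5.79 ± 0.287 and Adcy3 with 3.47 ± 0.199. The levels of these 4 genes did not overlap between neighbours in any of the 6 hearts. Adcy7, Adcy1 and Adcy9 followed with levels of 1.77 ± 0.245, 1.54 ± 0.458 and 1.41 ± 0.187 CPM per kb. Adcy7 exceeded Adcy9 in each of the 6 hearts, with overlapping ranges. Adcy1 could not be placed among them, since Adcy7 exceeded Adcy1 in 4 of 6 hearts and Adcy1 exceeded Adcy9 in 3 of 6. Adcy2 came next at 0.692 ± 0.254 CPM per kb, below Adcy9 in every heart. Adcy8 was last at 0.0478 ± 0.0125 CPM per kb, from 9 to 19 counts per heart.

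**Figure D1:**
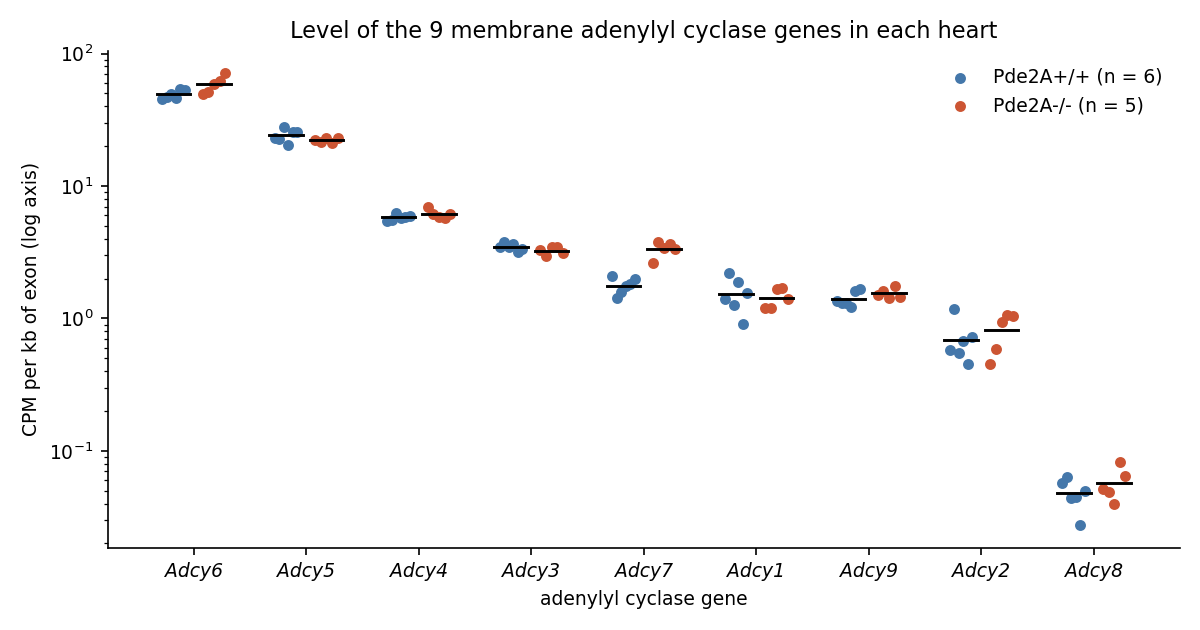
Level of each of the 9 adenylyl cyclase genes in CPM per kb of exon (vertical log axis) in 6 Pde2A+/+ hearts (blue) and 5 Pde2A-/- hearts (orange), ordered by the Pde2A+/+ mean; points are hearts and black lines are means. Adcy6 and Adcy5 lie above all other members in both genotypes, and Adcy7 is the gene whose 2 sets of points do not overlap.

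In Pde2A-/- hearts the order was the same except around Adcy7 and Adcy9. Adcy7 reached a level of 3.36 ± 0.444 CPM per kb and stood beside Adcy3 (3.25 ± 0.216), which it exceeded in 3 of 5 hearts, whereas in Pde2A+/+ hearts Adcy3 exceeded Adcy7 in 6 of 6. With the length of the longest coding transcript in place of all exons, Adcy3 was above Adcy7 in 4 of 5 Pde2A-/- hearts, so the order of this pair depends on the length used. Adcy9 (1.55 ± 0.132) exceeded Adcy1 (1.43 ± 0.247) in 4 of 5 hearts, with overlapping ranges. The summed level of the 9 genes was 97.6 ± 9.32 CPM per kb in Pde2A-/- and 88.3 ± 5.501 CPM per kb in Pde2A+/+ hearts, and the ranges, 88.1 to 111 and 81.8 to 94.1, overlapped. By group, the summed level of group II lay between 10.01 and 10.54 CPM per kb in Pde2A-/- and between 8.09 and 8.64 CPM per kb in Pde2A+/+ hearts, while the sums of groups I, III and IV overlapped between the genotypes. Within group II the level of Adcy7 went from 1.77 to 3.36 CPM per kb, that of Adcy4 from 5.79 to 6.15 and that of Adcy2 from 0.692 to 0.819, and the values of Adcy4 and Adcy2 overlapped between the genotypes.

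Between the genotypes, 1 of the 9 members passed the test, Adcy7, which rose, and 0 members fell (edgeR quasi-likelihood test, Benjamini-Hochberg adjusted p below 0.05). Adcy6 was the other member with an unadjusted p below 0.05, which 7368 of all 24177 genes had. With DESeq2 Adcy6 passed too, so that 2 members were then higher and 0 lower. Of all 24177 genes, 14.6% passed in edgeR, 8.93% higher and 5.67% lower in Pde2A-/-, so a count of 1 in 9 is near that background. The share of all genes that pass with DESeq2 is not given here. The 9 members had a median log2 fold change of 0.13, and all genes tested had one of -0.02. No member reached a fold of 2, which 2.59% of all genes did together with the adjusted p. The RNA comes from whole hearts, in which a change in the number of cells of a type and a change in the RNA per cell cannot be told apart.

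Adcy7 (ENSMUSG00000031659), a member that G protein βγ subunits stimulate and that is known from blood and immune cells, lies on chromosome 8 from 88272403 to 88329962 on the plus strand (GRCm38). Its level was 17.7, 25.3, 22.8, 24.7 and 22.7 CPM in Pde2A-/- replicates A, B, 14, D and 15. In the 6 Pde2A+/+ hearts it ran from 9.57 CPM to 13.98 CPM with a median of 12.1 CPM. Every Pde2A-/- heart lay above every Pde2A+/+ heart, with replicate A the lowest of its genotype, and 8.49% of all genes tested likewise had genotypes that did not overlap. The mean was 22.6 ± 2.99 CPM (SD, n = 5) in Pde2A-/- against 11.9 ± 1.65 CPM (n = 6) in Pde2A+/+ hearts. The log2 fold change was 0.92 with a standard error of 0.11 (95% interval 0.69 to 1.16), a fold of 1.90, with an adjusted p of 1.47e-04 in edgeR. Without Pde2A+/+ replicate 7, the heart with thymus transcripts and with the highest Adcy7 level of its genotype, the log2 fold change was 0.97.

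Adcy4, the most abundant member of group II and a form found in blood vessels, had 32.4, 28.9, 27.2, 26.6 and 28.6 CPM in Pde2A-/- replicates A, B, 14, D and 15 and between 25.4 and 29.1 CPM in Pde2A+/+ hearts. Replicate A alone lay above the Pde2A+/+ range. The log2 fold change was 0.09 (95% interval -0.04 to 0.21) and the edgeR adjusted p 0.347. Adcy2, the third member of the group and a form of the nervous system, had a mean of 3.45 ± 1.18 CPM (n = 5) in Pde2A-/- and 2.91 ± 1.07 CPM (n = 6) in Pde2A+/+ hearts, with a log2 fold change of 0.24 (95% interval -0.34 to 0.82) and an edgeR adjusted p of 0.597. Its interval was the widest of the group.

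**Figure D2:**
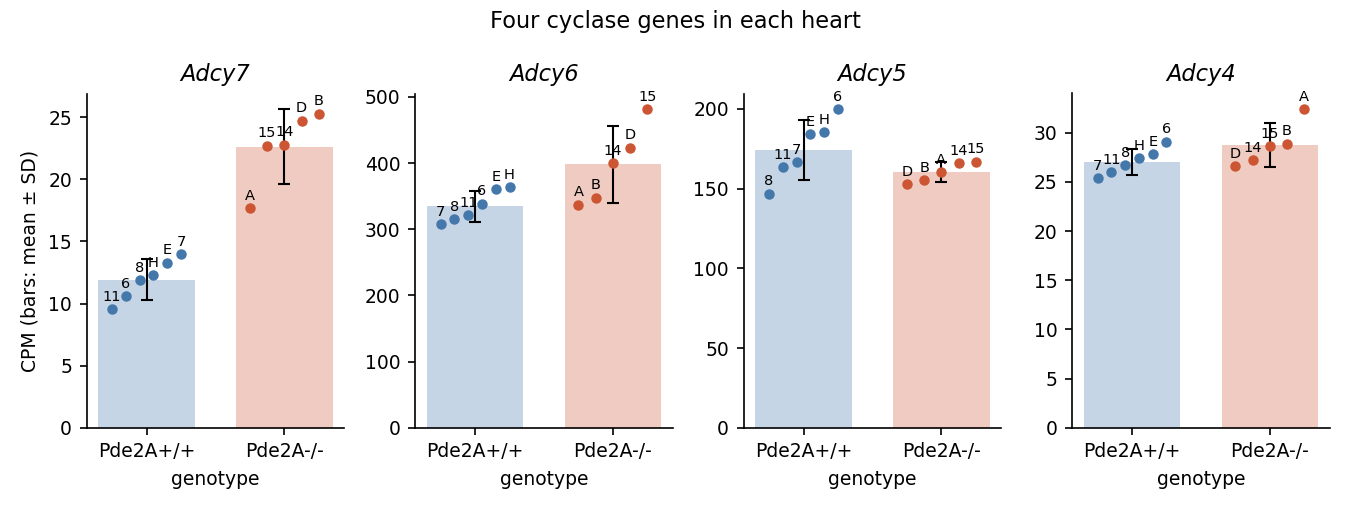
CPM of Adcy7, Adcy6, Adcy5 and Adcy4 in each heart (points with the replicate name), with bars for the mean and lines for the SD of 6 Pde2A+/+ (blue) and 5 Pde2A-/- hearts (orange); each panel has its own vertical axis from 0. The Adcy7 points of the genotypes are apart, those of Adcy6 overlap through replicates A and B, the Pde2A-/- points of Adcy5 lie inside the Pde2A+/+ range, and for Adcy4 replicate A alone lies above it.

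Adcy6 (ENSMUSG00000022994), the most abundant member, is on chromosome 15 from 98589973 to 98610076 on the minus strand. Its level was 337, 348, 400.2, 424 and 481 CPM in Pde2A-/- replicates A, B, 14, D and 15. In Pde2A+/+ hearts it ran from 308 CPM to 364 CPM with a median of 330.1 CPM. Replicates 14, D and 15 lay above every Pde2A+/+ heart, and replicates A and B lay within the Pde2A+/+ range. The log2 fold change was 0.25 with a standard error of 0.09 (95% interval 0.06 to 0.44) and an edgeR adjusted p of 0.0682, which missed the threshold. Adcy6 passed with DESeq2 (adjusted p 0.0322), with Xist as a covariate in edgeR (adjusted p 0.0393) and without Pde2A-/- replicate A or B in edgeR (adjusted p 0.0201 and 0.0341). Over the 19 other fits the adjusted p of Adcy6 ran from 0.0201 to 0.168. The Xist covariate was uneven between genotypes: Xist was high in Pde2A-/- replicates A and 14 and in Pde2A+/+ replicate 8, and low in the other hearts.

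Adcy5, the second cardiac form, had 160.3, 155, 166, 153 and 167 CPM in Pde2A-/- replicates A, B, 14, D and 15 and between 147 and 199.6 CPM in Pde2A+/+ hearts, with a median of 175 CPM. All Pde2A-/- hearts lay inside the Pde2A+/+ range. The log2 fold change was -0.12 (95% interval -0.27 to 0.03) and the edgeR adjusted p 0.261. The 2 cardiac forms thus had fold changes of opposite sign, neither of which passed. As a description, chosen after their values were seen, the level of Adcy6 per kb was 2.63 ± 0.358 times that of Adcy5 in Pde2A-/- and 2.05 ± 0.157 times in Pde2A+/+ hearts, and the ranges, 2.23 to 3.06 and 1.797 to 2.27, overlapped through Pde2A-/- replicate A.

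Of the calcium-stimulated members, Adcy3 and Adcy1 had 8942 and 7891 counts over the 11 hearts, and Adcy8 was scarce. Adcy3, known for its part in olfactory and ciliary signaling, had 20.3 ± 1.35 CPM (n = 5) in Pde2A-/- and 21.7 ± 1.24 CPM (n = 6) in Pde2A+/+ hearts, with a log2 fold change of -0.09 (95% interval -0.22 to 0.04) and an edgeR adjusted p of 0.318. Adcy1, a neuronal form, had 17.9 ± 3.09 CPM in Pde2A-/- and 19.2 ± 5.74 CPM in Pde2A+/+ hearts, with a log2 fold change of -0.10 (95% interval -0.51 to 0.31) and an edgeR adjusted p of 0.775. Adcy8, also a neuronal form, had 179 counts over the 11 hearts, and its log2 fold change was 0.25 (95% interval -0.29 to 0.80, edgeR adjusted p 0.548). Adcy9 had 8.03 ± 0.684 CPM in Pde2A-/- and 7.34 ± 0.970 CPM in Pde2A+/+ hearts (log2 fold change 0.13, 95% interval -0.09 to 0.35, edgeR adjusted p 0.423). Adcy10, the soluble cyclase that bicarbonate activates and that is not a member, had 16 counts over the 11 hearts.

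**Figure D3:**
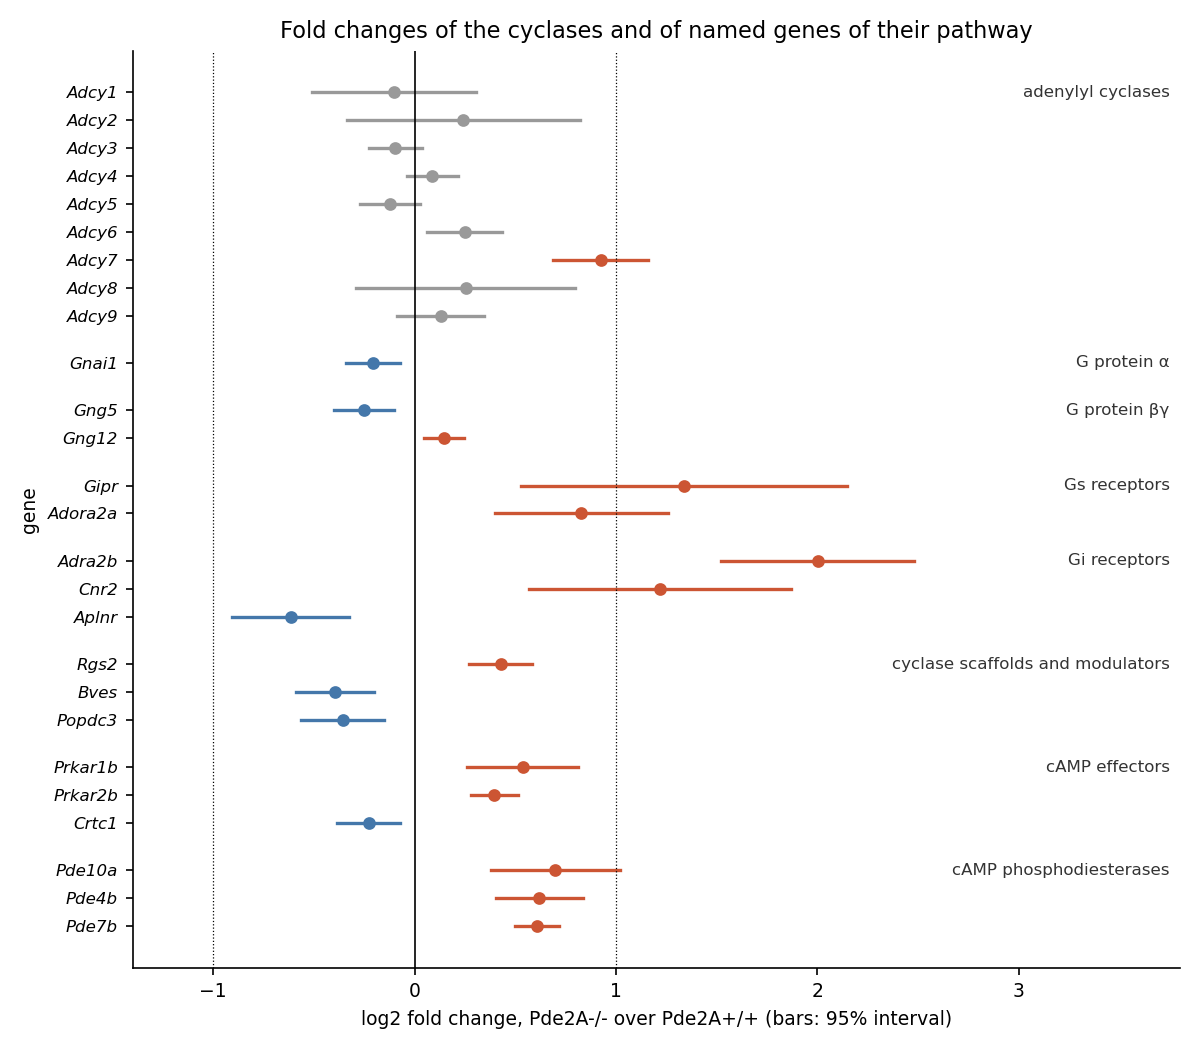
Log2 fold change of Pde2A-/- over Pde2A+/+ hearts (horizontal axis, points) with 95% intervals (bars) for the 9 adenylyl cyclases and for the genes named from each pathway list; orange and blue mark genes higher and lower at an edgeR adjusted p below 0.05, gray the others, and dotted lines a fold of 2. Adcy7 at 0.92 is the only cyclase in color, and Adra2b at 2.001 lies farthest to the right.

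The 5 genes whose pattern over the 11 hearts was nearest to that of Adcy7 were AW011738, Zc3hav1, Ifi35, Dennd4a and Tnfrsf1b, out of 11343 genes at 5 CPM or more on average. Nearness was the root mean square difference in log2 CPM after each gene was centred on its Pde2A+/+ mean, and it was 0.138 for AW011738 and 0.159 for Tnfrsf1b. Zc3hav1, an antiviral zinc finger protein, had 41.4 to 53.7 CPM in Pde2A-/- and 20.4 to 27.5 CPM in Pde2A+/+ hearts, and Ifi35, an interferon-induced gene, had a mean of 14.9 ± 2.82 against 7.80 ± 0.814 CPM. Tnfrsf1b, a receptor for tumor necrosis factor, had 12.7 ± 2.06 against 6.76 ± 0.873 CPM. The distance includes the difference between genotypes, so genes that resemble Adcy7 in it rose as well by construction.

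Many markers of blood and immune cells were higher in Pde2A-/- hearts, as Adcy7 was. No gene of any marker list was at 0 in all 11 hearts. Over all genes tested, 8.93% rose and 5.67% fell in edgeR. Of 14 macrophage genes, 11 rose and 0 fell, with a median log2 fold change of 0.95, and their summed level was 302 ± 34.8 CPM in Pde2A-/- and 167 ± 29.4 CPM in Pde2A+/+ hearts without overlap. The most abundant of them, Csf1r, the receptor for a macrophage growth factor, had 66.5 ± 7.26 against 42.5 ± 7.84 CPM. In Pde2A-/- replicate A, which had the lowest Adcy7 level of its genotype, the macrophage sum was also the lowest, at 250.5 CPM, but replicate B, which had the highest, had the second lowest sum, 282 CPM. Within Pde2A+/+ hearts the 2 did not share their order: replicate 7 had the highest Adcy7 level with a macrophage sum of 153 CPM, and replicate 8 the highest macrophage sum, 196 CPM, with 11.9 CPM of Adcy7.

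Of 7 megakaryocyte and platelet genes tested, 4 rose and 0 fell, and their summed level was 37.2 ± 5.16 against 21.5 ± 4.26 CPM without overlap, with Itga2b the most abundant. Within genotypes this sum did not share the order of Adcy7. Among Pde2A+/+ hearts it was highest in replicate 11, at 27.5 CPM, where Adcy7 was lowest, at 9.57 CPM. Among Pde2A-/- hearts it was highest in replicate 15, at 44.1 CPM, with 22.7 CPM of Adcy7. Of 9 erythroid genes tested, 5 rose and 0 fell, while the sum, led by the globin gene Hbb-bs, was 6146 ± 1233 against 6731 ± 3100 CPM and overlapped. Of 8 endothelial genes, 2 rose and 1 fell in edgeR, 4 and 1 in DESeq2, and their sum of 1334 ± 54.2 against 1194 ± 81.9 CPM did not overlap, with Cdh5 the most abundant at 317 CPM over the 11 hearts. Of 10 cardiomyocyte genes, 1 rose, Nppa, which encodes atrial natriuretic peptide, and 1 fell, Ttn, which encodes titin, and the count that fell was 4 with DESeq2 and ran from 0 to 4 over 21 alternatives. The part of these cell types in the level of Adcy7 was not tested.

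**Figure D4:**
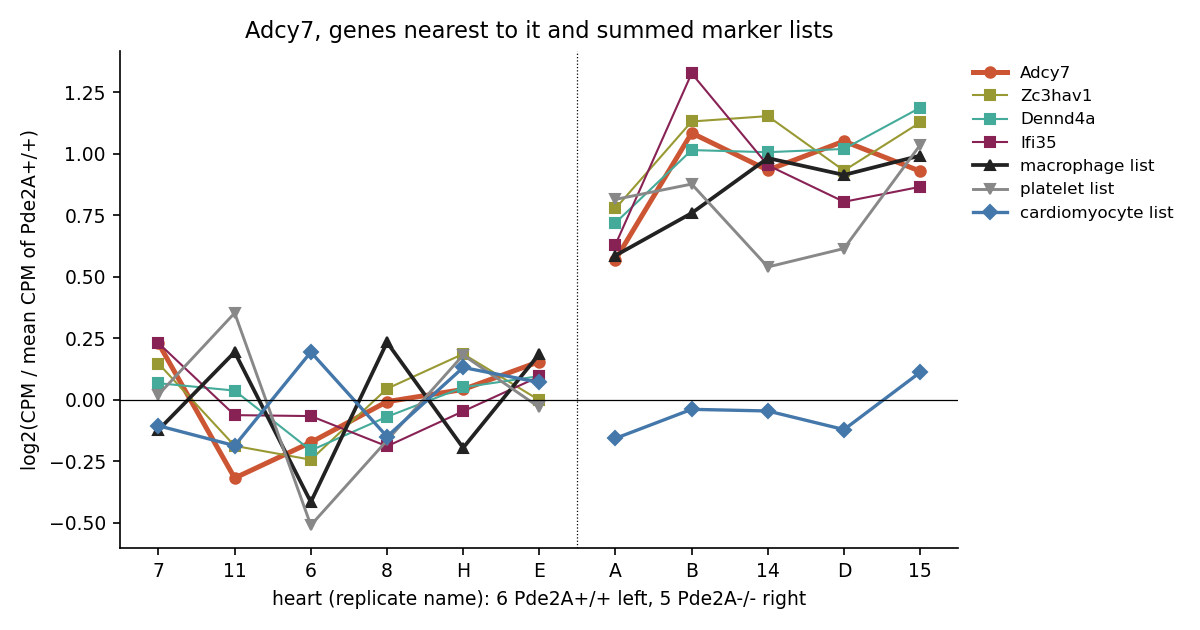
Log2 of CPM over the Pde2A+/+ mean (vertical axis) in each of 6 Pde2A+/+ and 5 Pde2A-/- hearts (horizontal axis, replicate names) for Adcy7, 3 of the 5 genes nearest to it and the summed macrophage, platelet and cardiomyocyte lists; lines only join the points of 1 item. Adcy7 lies from 0.57 to 1.08 and the macrophage sum from 0.59 to 0.99 in Pde2A-/- hearts, while the cardiomyocyte sum stays between -0.16 and 0.11.

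The promoter of Adcy7 is shown because interferon-linked genes were among its nearest. RefSeq windows of 300 bases, from 250 bases before to 50 after a transcript start (GRCm38.p6), were found for 7 of the 9 members, 10 windows in all, 3 of them of Adcy7. The names without a window are Adcy6 and Adcy8. The sequences searched on both strands were the interferon-gamma activated site TTCNNNGAA, which reads the same on either strand and was counted 1 time, the interferon-stimulated response element (a repeated GAAA separated by a pair of free bases), the cAMP response element TGACGTCA and its half-site TGACG, which the full element contains. TTCNNNGAA was in 2 of the 10 windows, 1 of Adcy7 and 1 of Adcy3, and in 8.3% of the 32851 windows of all genes. TGACG was in 2 of the 10 windows, 1 of Adcy7 and 1 of Adcy9, against 20.8% of all windows. The interferon-stimulated response element and TGACGTCA were in 0 of the 10 windows, against 3.44% and 1.79% of all. In the following Adcy7 window, chr8:88288816-88289115 on the plus strand, the capitals mark TTCNNNGAA, whose first base is at position -215 from the start.
Adcy7 promoter: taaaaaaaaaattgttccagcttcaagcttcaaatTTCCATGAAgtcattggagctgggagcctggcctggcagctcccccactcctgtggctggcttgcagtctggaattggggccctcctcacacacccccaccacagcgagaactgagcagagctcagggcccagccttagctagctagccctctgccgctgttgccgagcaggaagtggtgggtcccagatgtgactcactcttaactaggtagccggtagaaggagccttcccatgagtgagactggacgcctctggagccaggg
A match of letters is a description of the window and does not show that a factor binds there.

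Among the 9 members, Adcy2 and Adcy1 varied most between Pde2A+/+ hearts. The coefficient of variation there was 36.8% for Adcy2 and 29.8% for Adcy1, followed by 26.1% for the scarce Adcy8, against 4.95% for Adcy4, 5.72% for Adcy3 and 7.10% for Adcy6. Adcy1 was lowest in Pde2A+/+ replicate H, at 11.3 CPM, and highest in replicate 11, at 27.4 CPM, and Adcy2 had its lowest and highest Pde2A+/+ levels in the same hearts, 1.91 and 4.95 CPM. In Pde2A-/- hearts, replicates A and B had the lowest levels of both, 14.9 and 14.9 CPM of Adcy1 and 1.91 and 2.48 CPM of Adcy2.

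After the genotype means were taken out of log2 CPM, 36 pairs of members were compared over the 11 hearts by a permutation test within genotypes, two-sided. The deviations of Adcy1 and Adcy2 had a Pearson r of 0.829 (permutation p 0.0022, adjusted p 0.0396) and a Spearman rho of 0.855 (permutation p 0.00159, adjusted p 0.0572), so the rank measure did not pass after adjustment. The r was 0.858 within Pde2A-/- hearts, 0.897 within Pde2A+/+ hearts, 0.78 with the naming style of the replicates also taken out, and 0.752 without the 2 hearts farthest from the median of Adcy1. Adcy1 and Adcy3 had an r of 0.828 (permutation p 0.00216, adjusted p 0.0396) and a rho of 0.782 (permutation p 0.00889, adjusted p 0.16), with an r of 0.708 without the 2 farthest hearts. The other 34 pairs did not pass. Adcy5 and Adcy6 had an r of 0.424 (permutation p 0.0788, adjusted p 0.358), and Adcy7 passed with none of the other 8.

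The summed level of 6 epicardial genes moved with Adcy1. It was 192 CPM in Pde2A+/+ replicate H and 234 CPM in replicate 6, the hearts with the lowest Adcy1 levels of that genotype, and 434 and 436 CPM in replicates 11 and 8, the hearts with the highest. In Pde2A-/- hearts it was 259 and 289 CPM in replicates A and B, which had the lowest Adcy1 levels, and from 381 to 401 CPM in the other 3. Between genotypes the sums overlapped, 344 ± 65.7 CPM (n = 5) against 308 ± 105 CPM (n = 6). Of the 6 genes, 1 rose in edgeR, Tcf21, and 2 in DESeq2, and 0 fell in either, and the most abundant was Upk3b at 133 CPM. Of 8 genes of neurons and Schwann cells, 0 rose and 0 fell in edgeR, in DESeq2 and at an unadjusted p below 0.05, and their sum was 12.7 ± 2.49 against 12.0 ± 5.86 CPM. This sum too was highest in Pde2A+/+ replicates 11 and 8, at 22.9 and 13.7 CPM, lowest of that genotype in replicate H, at 7.48 CPM, and lowest of the Pde2A-/- hearts in replicates A and B, at 10.1 and 11.1 CPM. Fibroblast genes, 6 in number, had their highest Pde2A+/+ sum in replicate 11, at 8134 CPM, followed by replicate E, at 7327 CPM, and replicate 8, at 6213 CPM. Their sum was lowest in replicates 6 and H, at 4597 and 5343 CPM, and lowest of the Pde2A-/- hearts in replicates B and A, at 5395 and 5563 CPM. The part of epicardial, neural and fibroblast cells in the spread of Adcy1 was not tested.

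**Figure D5:**
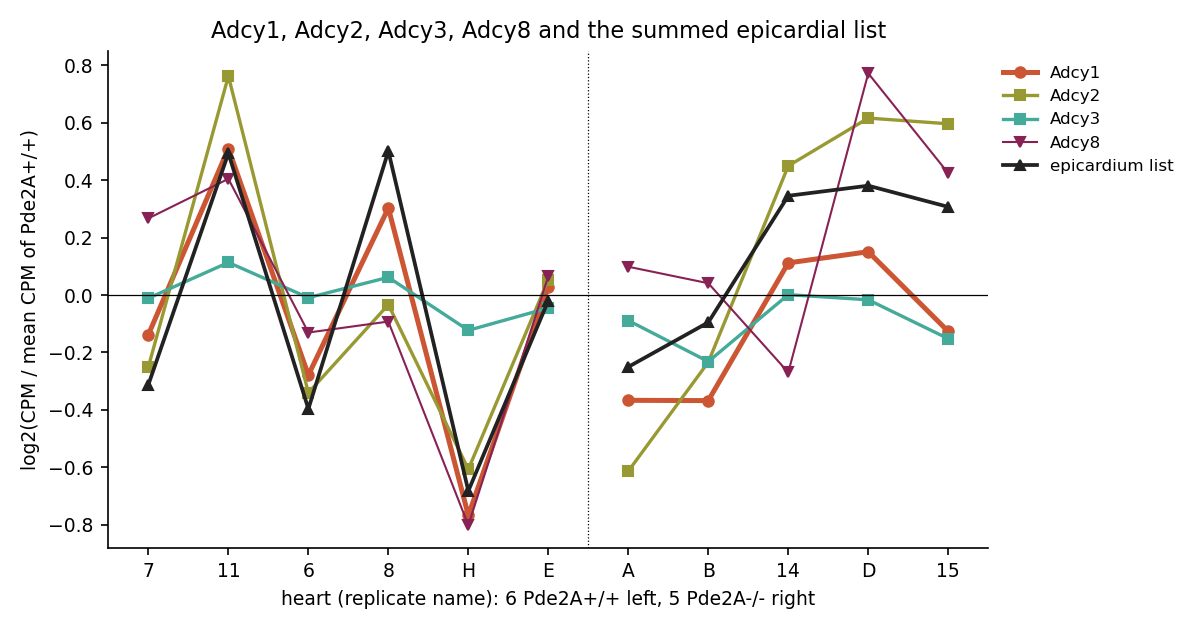
Log2 of CPM over the Pde2A+/+ mean (vertical axis) in each of 6 Pde2A+/+ and 5 Pde2A-/- hearts (horizontal axis, replicate names) for Adcy1, Adcy2, Adcy3, Adcy8 and the summed epicardial list; lines only join the points of 1 item. Adcy1, Adcy2 and the epicardial sum are all lowest among Pde2A+/+ hearts in replicate H, and Adcy3 varies least, from -0.23 to 0.11.

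The genes around the cyclases were read from lists by role. For comparison with these lists, 14.6% of all genes tested passed in edgeR, 8.93% higher and 5.67% lower in Pde2A-/-. Genotypes did not overlap in 8.49% of all genes tested. The first list holds the receptors that stimulate the cyclases through the G protein Gs. Of 35 such receptors, 28 were tested, 7 rose and 2 fell (3 to 8 and 0 to 4 over 21 alternatives), with a median log2 fold change of 0.13. Adrb1, the main adrenergic receptor of cardiac muscle, had a log2 fold change of 0.09 (edgeR adjusted p 0.527). Gipr, the receptor for a gut hormone that stimulates insulin release, rose with a log2 fold change of 1.34 and Adora2a, an adenosine receptor, with 0.83, both with overlapping genotypes. Gipr passed by little and lost its call in 6 of the 11 fits that left out a heart. Calcrl, which forms the receptors for adrenomedullin and the calcitonin gene-related peptide in blood vessels, was the most abundant at 73.1 CPM and rose with a log2 fold change of 0.50. Pth1r, the parathyroid hormone receptor, and Crhr2, a receptor for urocortins, fell with log2 fold changes of -0.36 and -0.62.

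Receptors that inhibit the cyclases through Gi numbered 32, of which 29 were tested, 3 rose and 1 fell (1 to 4 and 0 to 4 over 21 alternatives). Together these calls are near the share of all genes that passed in edgeR, 14.6%. Adra2b, an adrenergic receptor of this class, rose from 1.12 ± 0.369 CPM (n = 6) to 4.49 ± 0.673 CPM (n = 5) without overlap, a log2 fold change of 2.001 with an edgeR adjusted p of 8.543e-05. Cnr2, the cannabinoid receptor of immune cells, rose with a log2 fold change of 1.22 at a mean of 1.62 CPM, with overlapping genotypes. Chrm2, the muscarinic receptor of the heart, rose with a log2 fold change of 0.32 and an edgeR adjusted p of 0.0435, a call lost in 8 of the 11 fits that left out a heart. Aplnr, the apelin receptor of the endothelium, fell from 45.4 ± 4.22 to 29.7 ± 7.52 CPM without overlap, a log2 fold change of -0.61 with an edgeR adjusted p of 0.0112.

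The G proteins that link receptor and cyclase were read next. Gnas, which encodes the stimulatory α subunit and was the most abundant of the list at 1650 CPM, had a log2 fold change of -0.02 (edgeR adjusted p 0.80). Of 7 α subunits 0 rose and 1 fell, Gnai1 of the inhibitory class, with a log2 fold change of -0.21 and an edgeR adjusted p of 0.0401. That count is near the share of all genes that passed in edgeR, 14.6%. Among 15 β and γ subunits, which stimulate group II, 2 rose and 1 fell in edgeR, and 1 rose and 2 fell in DESeq2: Gng12 had a log2 fold change of 0.15 (edgeR adjusted p 0.0492), Gng5 of -0.25 (edgeR adjusted p 0.0291), and Gng13, at a mean of 0.231 CPM, of 1.11 (edgeR adjusted p 0.0417). In the 11 fits that left out a heart, Gnai1 lost its call in 7, Gng5 in 4, and Gng12 and Gng13 in 9 each.

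Of 24 scaffolds and modulators that hold or tune membrane cyclases, 3 rose and 3 fell in edgeR, and 3 rose and 6 fell in DESeq2. Over the 21 alternatives the counts ran from 0 to 5 for genes that rose and from 0 to 8 for genes that fell. Rgs2, which dampens G protein signals and can inhibit cyclases directly, rose from 16.9 ± 0.976 to 22.8 ± 2.45 CPM without overlap, a log2 fold change of 0.43 with an edgeR adjusted p of 0.00245. Bves and Popdc3, membrane proteins of the Popeye family that bind cAMP in striated muscle, fell with log2 fold changes of -0.39 and -0.36 and without overlap. Akap13, an anchor of protein kinase A, and Prkce, a form of protein kinase C, rose with log2 fold changes of 0.17 and 0.27. When a heart was left out, Popdc3 lost its call in 4, Akap13 in 3 and Prkce in 2 of 11 fits.

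Downstream of the cyclases, 18 cAMP effectors were tested, of which 3 rose and 1 fell in edgeR, and 3 rose and 3 fell in DESeq2. Over the 21 alternatives the counts ran from 0 to 4 and from 0 to 3. All 3 that rose encode regulatory subunits of protein kinase A: Prkar1b with a log2 fold change of 0.54, Prkar2b with 0.40 and Prkar1a with 0.19. Prkar2b went from 30.7 ± 1.81 to 40.5 ± 2.28 CPM without overlap (edgeR adjusted p 5.281e-04). The catalytic subunit gene Prkaca had a log2 fold change of -0.15 (edgeR adjusted p 0.0872; DESeq2 adjusted p 0.0372), and Prkar2a, the remaining regulatory subunit, one of -0.18 (edgeR adjusted p 0.0866). Crtc1, a coactivator of CREB, fell with a log2 fold change of -0.23, close to the threshold (edgeR adjusted p 0.0485). With a heart left out, Crtc1 did not pass in 9 and Prkar1a in 6 of 11 fits.

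Of 16 phosphodiesterases that hydrolyze cAMP, 15 were tested, Pde2a having too few counts, and 7 rose and 0 fell in edgeR, and 8 rose and 1 fell in DESeq2. The list's median log2 fold change was 0.35 against -0.02 over all genes tested. Pde7b rose from 25.3 ± 1.15 to 38.6 ± 2.07 CPM, with every Pde2A-/- heart between 35.4 and 40.5 CPM and every Pde2A+/+ heart between 23.3 and 26.6 CPM (log2 fold change 0.61, edgeR adjusted p 9.69e-06). Pde4b rose from 53.4 ± 5.62 to 82.1 ± 13.2 CPM without overlap, a log2 fold change of 0.62, and Pde10a with a log2 fold change of 0.70 at a mean of 5.28 CPM. The others that rose were Pde4a, Pde4d, Pde1a and Pde3a, with log2 fold changes of 0.41, 0.35, 0.31 and 0.31, and of these Pde4a and Pde3a each lost their call in 6 of 11 fits that left out a heart. The summed level of the 16 genes was 463 ± 48.2 CPM in Pde2A-/- and 369 ± 18.2 CPM in Pde2A+/+ hearts without overlap. Of 8 other cyclases, the soluble adenylyl cyclase and the guanylyl cyclases that make cGMP, 0 rose and 0 fell in edgeR, in DESeq2 and at an unadjusted p below 0.05, and the most abundant, Gucy1a1, had a log2 fold change of 0.12 (edgeR adjusted p 0.326).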

How the data were processed

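RNA from 11 whole embryonic hearts at E14.5, 5 Pde2A-/- and 6 Pde2A+/+, was made into stranded mRNA libraries and sequenced as single-end reads. The authors mapped the reads with STAR to GRCm38 (mm10) and deposited the counts of reads per gene without normalization; the STAR version and the annotation are not given in the sources used here. The sense column was used, and the opposite and unstranded columns only in alternatives. In these counts STAR ignores reads that overlap several genes. Genotypes were taken from the sample titles.

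Names, positions and exon lengths came from GENCODE M21, in which 346 of the 55487 identifiers had no entry. A gene entered the test with a total of 10 or more counts, which 24177 did. The genotypes were compared with edgeR 4.0.16 in R 4.3.3, with TMM normalization, the quasi-likelihood test and Benjamini-Hochberg adjustment over all genes kept. A gene passed at an adjusted p below 0.05. A standard error is the log2 fold change divided by the root of its F statistic. Log2 CPM used a prior count of 2, and levels between genes were set side by side per kilobase of the union of exons. Correlations used 100000 permutations within genotypes. The test was checked on simulated data for this comparison with 23687 genes, in which only genes with a mean of at least 100 counts per heart were altered. With a log2 change of 1, 96 of 100 altered genes were recovered, and with one of 0.5, 72 of 100, beside 11 wrong calls. These rates do not cover scarcer genes such as Adcy8, with 179 counts over the 11 hearts. Summaries used Python 3.11.15 with pandas 2.3.3, and figures matplotlib 3.10.9.

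The members, pathway lists and marker lists were chosen with earlier results of these data known, and so were the tests. The named genes are the 9 members, Adcy10, in each pathway list up to 3 genes with the largest change among those that passed at a mean of at least 1 CPM, the most abundant gene of each marker list, and the 5 genes nearest to a member that passed. Other genes named from the lists were chosen after their values were seen. Some list genes are counted in their lists and are not reported here singly.

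Alternatives were DESeq2 1.42.0 in place of edgeR, DESeq2 size factors, filterByExpr, no filter other than 1 count, reads of both strands, normalization without globin genes, Xist or the kind of replicate name (letter or number) as a covariate, an unadjusted p, a fold of at least 2 beside the adjusted p, other gene lengths, and each heart left out in turn.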

Additional observations from a re-analysis of the deposited data

Results flagged for a closer look

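Of 62 sets of values, a gene or list in 1 genotype, 6 had a heart whose gap to its neighbour took up more of the range than Dixon's 95% limit allows (0.71 for 5 hearts, 0.625 for 6); chance alone flags about 1 set in 20. Adcy2 was 4.95 CPM in Pde2A+/+ replicate 11 against 1.91 to 3.03 CPM in the other 5 hearts of that genotype, and that heart also had the highest Adcy1 level of its genotype. The summed level of the G protein α subunits was 2288 CPM in Pde2A-/- replicate A against 2367 to 2399 CPM in the other 4 hearts, and that of the β and γ subunits 1113 CPM in Pde2A-/- replicate D against 1166 to 1168 CPM. The thymus sum was 133 CPM in Pde2A+/+ replicate 7 against 6.11 to 8.28 CPM in the other 5. The liver sum was 44 CPM in Pde2A-/- replicate D against 4.74 to 7.49 CPM, and 117 CPM in Pde2A+/+ replicate E against 3.64 to 45.9 CPM. The part of these hearts in the levels of the cyclases was not tested beyond the fits that left each of them out.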

How the results depend on the processing

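Adcy7 passed in all 19 other fits, with a log2 fold change of 0.87 to 1.01 when 1 heart was left out. The count of members higher in Pde2A-/- was 1, and it became 2, Adcy7 and Adcy6, with DESeq2, with Xist as a covariate and at an unadjusted p below 0.05, and 0 when a fold of 2 was asked for as well. It ran from 1 to 2 over the 11 fits that left out a heart, with 2 without Pde2A-/- replicate A or B. An unadjusted p below 0.05 was reached by 7368 of all 24177 genes, in either direction. The count of members lower was 0 under every alternative. The log2 fold change of Adcy1 ran from -0.21 to 0.03 when a heart was left out and was above 0 only without Pde2A+/+ replicate 11. That of Gnas was 0.12 with reads of both strands, and from -0.04 to 0.00 when a heart was left out, with the sign changed only without Pde2A-/- replicate A. For the other 42 named genes, 2 of 880 values changed sign, both of Gnas, 33 calls were lost for a fold under 2, and 94 calls of 17 genes were lost otherwise, 85 of these when a heart was left out. The count of cAMP phosphodiesterases that rose was 5 to 9, apart from 0 with the fold of 2. With reads of both strands the Pde2A+/+ level of Adcy3 was 2.43 CPM per kb and that of Adcy6 42.9; the cause was not tested. No paired analysis was possible because the genotypes share no replicate name. Prkaca, which did not pass, passed with DESeq2, with the kind of replicate name as a covariate, without Pde2A-/- replicate B and at an unadjusted p. Counts of reads without molecular identifiers carry amplification error as well.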

Other observations

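The genes whose pattern over the hearts was nearest to that of Adcy6 and Adcy1 were looked up after the values of these members had been seen. For Adcy6 they were Abhd4, Cyth3, Dip2c, Foxn3 and Sptbn1, with root mean square differences of 0.0351 to 0.0464 in centred log2 CPM. Sptbn1, a spectrin of the membrane skeleton, had 1447 ± 191 CPM in Pde2A-/- and 1199.8 ± 92.5 CPM in Pde2A+/+ hearts, and Abhd4, a lipid hydrolase, 114 ± 14.4 and 94.1 ± 5.68 CPM, with edgeR adjusted p of 0.0436 (Sptbn1) and 0.0306 (Abhd4) and overlapping genotypes. For Adcy1 the nearest gene was Igfbp2, a binding protein of insulin-like growth factors, at 0.07, ahead of Fras1 at 0.13 and Myrf at 0.134. Igfbp2 had 51.1 ± 8.91 CPM in Pde2A-/- and 55.0 ± 17.4 CPM in Pde2A+/+ hearts and did not pass (edgeR adjusted p 0.771).

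Between the genotypes, 2 of 6 fibroblast genes rose and 0 fell, with a sum of 6804 ± 1394 CPM in Pde2A-/- and 6189 ± 1325 CPM in Pde2A+/+ hearts, and the most abundant was Col3a1, a fibrillar collagen. Of 6 genes of smooth muscle and pericytes, 0 rose and 2 fell in edgeR, a count that was 0 or 1 in 16 of 21 alternatives, with sums of 486 ± 42.4 and 534 ± 64.2 CPM. Both sums overlapped between the genotypes.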
